A study of Homo sapiens with 29 samples.

Results

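Peaks of the INO80 complex, which remodels chromatin, were examined at 26 genes of cholesterol and fatty acid synthesis, out of 19785 protein-coding genes in the annotation. The genes were taken by name from these pathways and not by any measured value: 6 encode enzymes of the mevalonate steps, 9 the steps from farnesyl pyrophosphate to cholesterol, 4 regulators of the SREBP pathway, 1 a sterol carrier and 6 the steps of fatty acid synthesis. A gene was scored as carrying a peak when a peak of the list came within 1 kb of a start of its protein-coding transcripts. Where several did, the widest was taken.

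The study mapped INO80 subunits and the transcription factor YY1 by chromatin immunoprecipitation and sequencing (ChIP-seq) in HepG2 and Huh7, which are established human liver cancer cell lines. INO80, the ATPase that slides nucleosomes, was mapped in HepG2 from 3 libraries made with more than a single antibody lot and in Huh7 from 2 libraries of a lot also used in HepG2. MCRS1, a further subunit, and RUVBL2, an ATPase that the complex shares with other chromatin complexes, had 2 libraries in each line, and RUVBL1, the partner ATPase of RUVBL2, had 2 in HepG2 only. YY1, a sequence-specific factor that binds DNA with the complex and apart from it, had 2 libraries in Huh7, and its HepG2 list was made by the submitters from public ENCODE reads. None of the libraries with a sample record carries a treatment in its title among these groups, and their fixation was 30 min in 0.3% formaldehyde, while no fixation is stated for YY1 in HepG2.

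Each factor has a single deposited peak list per line, so none of the values below has a replicate error and no test was run. The lists give positions and no height, so the depth of a peak in reads is unknown, and its width was taken in place of its strength. The shortest peak in each of the 9 lists was 147 bp, and the lists ranged from 3322 peaks (RUVBL2 in Huh7) to 39293 (YY1 in HepG2). As a check of the cell type, 6 hepatocyte marker genes were scored for INO80. In HepG2 5 of 6 carried a peak, against 63.7% of all genes, and in Huh7 1 of 6, against 47.7%. The hepatocyte markers thus lay above the background in HepG2 and below it in Huh7. The check does not bear out the liver label of Huh7. With 6 genes, and 15303 INO80 peaks in Huh7 against 23665 in HepG2, it cannot decide that label either. Of 6 markers of other cell types none carried INO80 in either line, and 2 carried YY1 in HepG2.

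Cells make cholesterol from acetyl-CoA through mevalonate, squalene and lanosterol, and fatty acids from the same acetyl-CoA through malonyl-CoA. When sterols are low, the escort protein SCAP carries the membrane-bound SREBP factors out of the endoplasmic reticulum, and the released factors enter the nucleus and bind sterol regulatory elements, often beside CCAAT boxes held by NF-Y. INSIG proteins hold SCAP back when sterols are plentiful. The liver is a main site of both pathways.

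The stretch before the gene start is shown first for genes with peaks in the most lists, since all the windows described below are centred there. Each sequence holds the 250 bases before the start of the canonical transcript, read from the GRCh37 genome (hg19) along the direction of transcription. Capitals mark the CCAAT box, which reads ATTGG on the other strand, the sterol regulatory element TCACNCCAC, the E box CACGTG and a YY1 core with a free base, AANATGGC, each searched on both strands. CYP51A1 lies at chr7:91763792-91764041 on the minus strand, SREBF1 at chr17:17740301-17740550 on the minus strand, SREBF2 at chr22:42228859-42229108 on the plus strand and MSMO1 at chr4:166248571-166248820 on the plus strand. SREBF2 and MSMO1 are among the 6 genes with peaks in 8 lists and were taken for their INO80 width in HepG2. FASN, which ranks with them by its number of lists and INO80 width, is named only. HMGCS1, FDFT1 and TM7SF2, which also had peaks in 8 lists, are not shown.
CYP51A1: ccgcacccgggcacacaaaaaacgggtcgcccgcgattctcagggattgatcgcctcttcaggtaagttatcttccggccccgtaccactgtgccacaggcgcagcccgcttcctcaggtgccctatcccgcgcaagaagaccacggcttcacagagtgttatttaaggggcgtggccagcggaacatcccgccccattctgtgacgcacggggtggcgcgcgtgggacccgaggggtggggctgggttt
SREBF1: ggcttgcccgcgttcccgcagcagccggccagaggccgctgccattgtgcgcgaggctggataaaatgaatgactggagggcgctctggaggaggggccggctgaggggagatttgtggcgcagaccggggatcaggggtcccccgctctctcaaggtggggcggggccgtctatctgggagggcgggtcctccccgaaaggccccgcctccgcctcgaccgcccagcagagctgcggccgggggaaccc
SREBF2: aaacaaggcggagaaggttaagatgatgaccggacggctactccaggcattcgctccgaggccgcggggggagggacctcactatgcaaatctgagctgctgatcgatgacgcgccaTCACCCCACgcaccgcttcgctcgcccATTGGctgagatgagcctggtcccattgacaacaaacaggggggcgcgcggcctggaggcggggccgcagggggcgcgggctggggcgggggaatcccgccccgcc
MSMO1: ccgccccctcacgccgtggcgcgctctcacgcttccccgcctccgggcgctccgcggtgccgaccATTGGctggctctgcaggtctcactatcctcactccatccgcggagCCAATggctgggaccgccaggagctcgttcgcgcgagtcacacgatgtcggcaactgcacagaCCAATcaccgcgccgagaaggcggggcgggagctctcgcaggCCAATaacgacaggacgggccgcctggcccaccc
The 4 genes with peaks in the fewest lists stand beside them for comparison. HSD17B7 lies at chr1:162760242-162760491 on the plus strand, ELOVL6 at chr4:111119772-111120021 on the minus strand, SC5D at chr11:121163230-121163479 on the plus strand and INSIG1 at chr7:155089338-155089587 on the plus strand.
HSD17B7: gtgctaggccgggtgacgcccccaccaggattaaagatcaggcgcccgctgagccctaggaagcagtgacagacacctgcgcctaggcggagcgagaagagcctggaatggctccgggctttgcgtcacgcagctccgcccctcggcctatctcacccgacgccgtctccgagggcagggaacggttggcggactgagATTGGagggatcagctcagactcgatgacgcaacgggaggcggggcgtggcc
ELOVL6: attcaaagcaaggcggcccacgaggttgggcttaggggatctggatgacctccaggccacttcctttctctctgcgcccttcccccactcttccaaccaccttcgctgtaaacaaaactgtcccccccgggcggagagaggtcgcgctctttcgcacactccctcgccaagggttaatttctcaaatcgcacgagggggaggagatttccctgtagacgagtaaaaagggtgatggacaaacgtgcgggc
SC5D: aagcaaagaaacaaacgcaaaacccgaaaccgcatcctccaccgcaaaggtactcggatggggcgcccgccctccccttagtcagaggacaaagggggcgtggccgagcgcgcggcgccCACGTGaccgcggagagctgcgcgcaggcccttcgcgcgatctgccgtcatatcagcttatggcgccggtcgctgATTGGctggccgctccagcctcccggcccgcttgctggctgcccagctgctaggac
INSIG1: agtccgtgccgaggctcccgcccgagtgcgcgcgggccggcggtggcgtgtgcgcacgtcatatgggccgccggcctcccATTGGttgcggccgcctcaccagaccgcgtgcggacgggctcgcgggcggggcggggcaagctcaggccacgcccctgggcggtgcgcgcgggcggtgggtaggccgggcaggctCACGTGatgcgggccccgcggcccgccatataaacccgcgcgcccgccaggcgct
The 4 sequences above with the fewest lists hold 3 CCAAT boxes and 2 E boxes between them, and the stretch before ELOVL6 holds none of the marked motifs. Of the genes with the most lists, CYP51A1 and SREBF1 carried peaks in all 9 lists, yet neither shows a marked motif in these bases. MSMO1 shows 4 CCAAT boxes and SREBF2 shows a sterol element with a CCAAT box downstream of it. The motifs and the number of lists thus did not follow each other in these 8 sequences.

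In HepG2 nearly all of the synthesis genes carried peaks of INO80, MCRS1, RUVBL2 and YY1. INO80 peaks lay at 25 of 26 synthesis genes in HepG2 (96.2%), against 63.7% of all protein-coding genes. MCRS1 peaks lay at the same 25 genes, against 58.1% of all genes. YY1 again lay at these 25, against 62.6%. The gene without any of the 3 was INSIG1.

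RUVBL2 stood furthest from the background by the ratio of the shares, in both lines, but not in HepG2 when each list was cut to its 3322 widest peaks. RUVBL2 then lay at 34.6% of synthesis genes in HepG2, against 14.2%, and MCRS1 at 53.8%, against 15.3%. Over the whole lists, RUVBL2 peaks lay at 23 of 26 synthesis genes in HepG2 (88.5%), against 39.1% of all genes, and at 10 of 26 in Huh7 (38.5%), against 12.7%. SC5D, INSIG1 and ELOVL6 were without RUVBL2 in HepG2. RUVBL1, mapped in HepG2 only, lay at 6 of 26 (23.1%), against 16.8%, which is close to the background. The 6 genes were CYP51A1, TM7SF2, SREBF1, SREBF2, FASN and ACACA.

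Fewer synthesis genes carried peaks in Huh7, as was so for genes at large. INO80 lay at 19 of 26 (73.1%), against 47.7% of all genes, and YY1 at 23 of 26 (88.5%), against 51.5%. MCRS1 lay at 8 of 26 (30.8%), against 21.8%. HSD17B7 and SC5D had no peak in any Huh7 list.

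**Figure D1:**
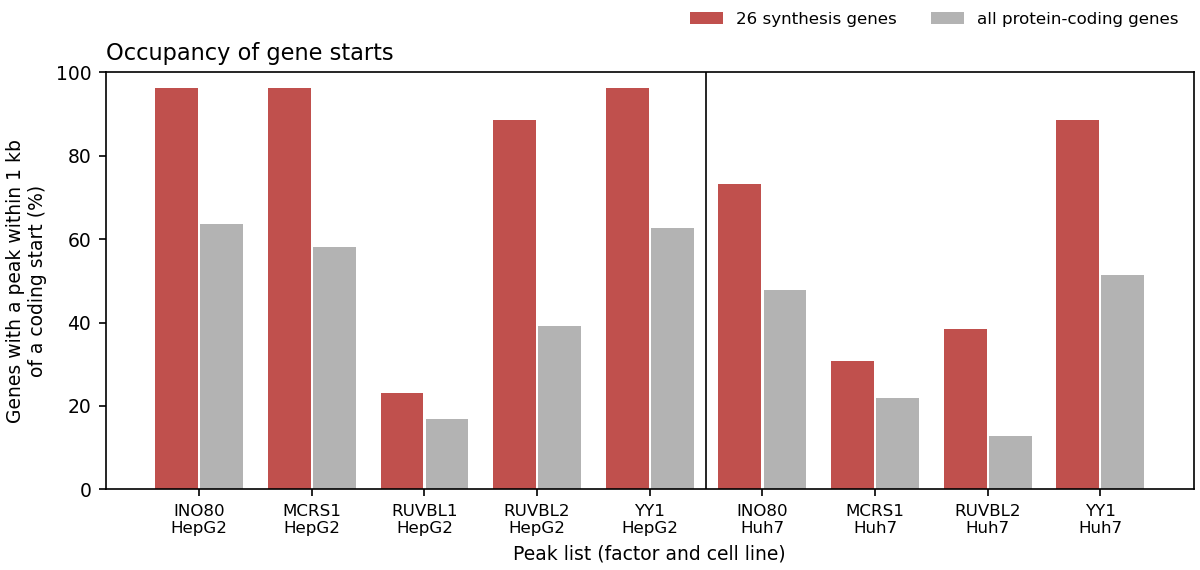
Share of genes with a peak within 1 kb of a coding start (y axis, percent) in each of the 9 peak lists (x axis), for the 26 synthesis genes (red) and all 19785 protein-coding genes (grey). The red bar is above the grey bar in each list, by the most for RUVBL2 in HepG2 (88.5% against 39.1%) and by the least for RUVBL1 (23.1% against 16.8%).

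The synthesis genes start in CpG-rich DNA, and the shares were therefore also set beside genes of that kind. The composition was read for the 23 synthesis genes that have an entry in the RefSeq promoter table, which leaves out FDFT1, SQLE and FASN. All 23 had a ratio of observed to expected CpG of at least 0.6 and a GC share of at least 50% in the 300 bases from 250 before the start, against 66.1% of all genes. Beside the 12868 genes of this kind, INO80 lay at 22 of 23 synthesis genes in HepG2 (95.7%), against 85%, and at 17 of 23 in Huh7 (73.9%), against 64.6%. RUVBL2 lay at 20 of 23 in HepG2 (87%), against 53.4%, and at 8 of 23 in Huh7 (34.8%), against 17.3%. The distance from the background thus narrowed for INO80, to 95.7% against 85% in HepG2. It narrowed for RUVBL2 too, from 88.5% against 39.1% over all genes to 87% against 53.4% in HepG2. In Huh7 RUVBL2 went from 38.5% against 12.7% to 34.8% against 17.3%. For MCRS1 the shares were 95.7% against 77.3% in HepG2 and 30.4% against 29.5% in Huh7, and for YY1 they were 95.7% against 81.8% in HepG2 and 87% against 69.8% in Huh7. RUVBL1 lay at 21.7% of the 23 genes and at 22% of the CpG-rich genes.

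Where they were occupied in HepG2, the synthesis genes had a wider median INO80, MCRS1 and YY1 peak than all genes with a peak. Single genes varied. Peaks wider than the median of all genes with a peak numbered 15 of 25 for INO80, 18 of 25 for MCRS1 and 17 of 25 for YY1. INO80 peaks in HepG2 had a median width of 1444 bp over 25 synthesis genes, against 1118.5 bp over all genes with a peak. MCRS1 peaks in HepG2 had a median of 1839 bp, against 1148 bp, and YY1 peaks in HepG2 of 1352 bp, against 909 bp. The median RUVBL2 peak in HepG2 measured 637 bp at the synthesis genes, against 518 bp.

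In Huh7 the median width was 940 bp at the synthesis genes, against 635 bp, for INO80, and 866 bp, against 658 bp, for YY1. The short lists went the other way. RUVBL1 peaks in HepG2 had a median of 200 bp, against 315 bp, MCRS1 peaks in Huh7 of 259 bp, against 310 bp, and RUVBL2 peaks in Huh7 of 231 bp, against 277 bp. None of the 6 RUVBL1 peaks exceeded the median of all genes with a RUVBL1 peak. Widths spread over more than an order of magnitude among the synthesis genes, from 152 bp (HSD17B7) to 4066 bp (FASN) for INO80 in HepG2, so a median says little of a single gene.

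**Figure D2:**
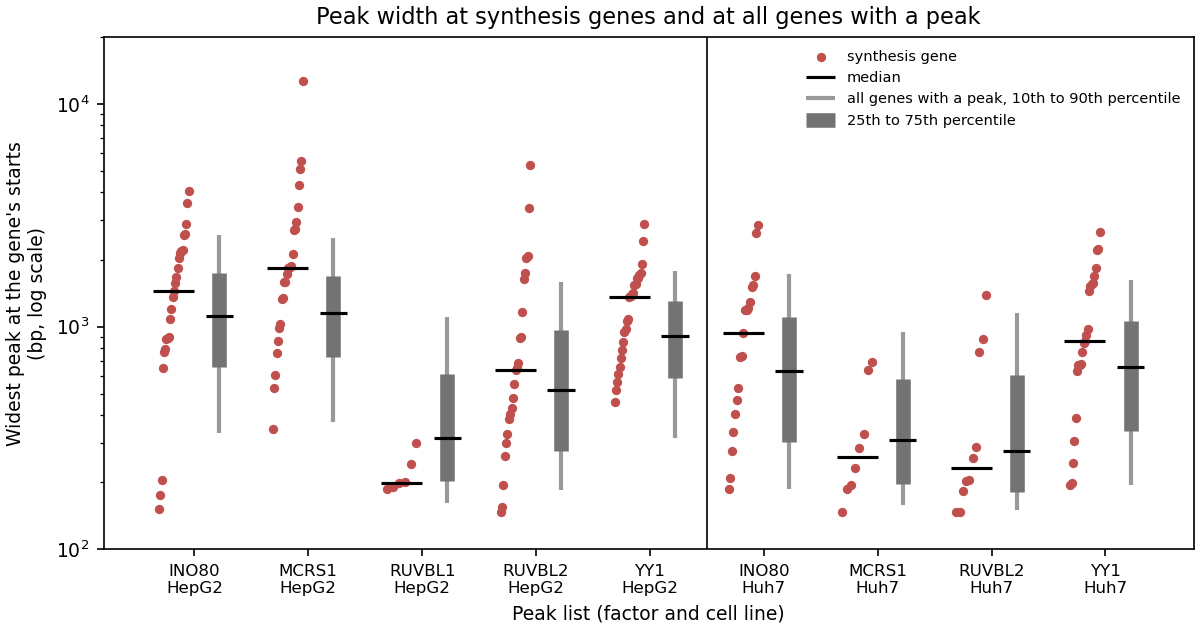
Width of the widest peak at each occupied synthesis gene (red points, bp on a log scale) in each of the 9 lists, beside all genes with a peak in that list (grey bar, 25th to 75th percentile, with a line from the 10th to the 90th). Black lines mark medians, which lie higher for the synthesis genes in INO80, MCRS1, RUVBL2 and YY1 of HepG2 and in INO80 and YY1 of Huh7 (940 against 635 bp and 866 against 658 bp), and lower in the other 3 lists.

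The genes are described next by their place in the pathway. The 6 mevalonate genes carried INO80, MCRS1, RUVBL2 and YY1 in HepG2 without exception, and INO80 and YY1 in Huh7 without exception. None of the 6 carried RUVBL1.

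HMGCS1, the cytosolic synthase that adds acetyl-CoA ahead of mevalonate, had peaks of 882 bp (INO80), 1841 bp (MCRS1), 194 bp (RUVBL2) and 726 bp (YY1) in HepG2. In Huh7 its peaks measured 1190 bp (INO80), 331 bp (MCRS1), 202 bp (RUVBL2) and 674 bp (YY1). It is the only mevalonate gene with a peak in all 4 Huh7 lists, and its INO80 peak was the wider in Huh7.

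MVK, which phosphorylates mevalonate, had an INO80 peak of 1079 bp in HepG2 and of 187 bp in Huh7. PMVK, the kinase of the following step, had 769 bp in HepG2 and 468 bp in Huh7. MVD, the decarboxylase that yields isopentenyl pyrophosphate, had 2615 bp in HepG2 and 736 bp in Huh7. MVD thus carried the widest INO80 peak of the mevalonate genes in HepG2. Its MCRS1 peak of 3437 bp and RUVBL2 peak of 2077 bp in HepG2 were the widest of the mevalonate genes too, and Huh7 held neither factor there.

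IDI1, the isomerase of isopentenyl pyrophosphate, had INO80 peaks of 2135 bp in HepG2 and 2849 bp in Huh7. Its Huh7 peak was the widest INO80 peak of any synthesis gene in that line. Its YY1 peaks measured 1400 bp in HepG2 and 1549 bp in Huh7. FDPS, which makes farnesyl pyrophosphate, had INO80 peaks of 654 and 598 bp in HepG2 and of 210 bp in Huh7, beside a YY1 peak of 1557 bp in HepG2.

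All 9 genes of the sterol steps carried INO80, MCRS1 and YY1 in HepG2, and 8 carried RUVBL2. In Huh7, INO80 lay at 5 and YY1 at 7. This group holds both the most widely occupied and some of the least occupied genes.

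FDFT1, the squalene synthase, had INO80 peaks of 2185 bp in HepG2 and 1509 bp in Huh7 and peaks in 8 lists. SQLE, the squalene epoxidase, had an INO80 peak of 3595 bp and an MCRS1 peak of 5544 bp in HepG2, in each list the next widest after FASN. In Huh7, SQLE carried YY1 alone, with 199 bp, and the nearest INO80 peak, of 158 bp, began 1055 bp downstream of the start, just outside the window. The broad INO80 and MCRS1 peaks of SQLE in HepG2 thus had no counterpart at its start in Huh7.

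LSS, the lanosterol synthase, had a narrow INO80 peak of 204 bp in HepG2 under an MCRS1 peak of 1844 bp and a YY1 peak of 1534 bp. In Huh7 it carried YY1 alone, with 194 bp. CYP51A1, the lanosterol demethylase, had peaks of 1832 bp (INO80), 1718 bp (MCRS1), 201 bp (RUVBL1), 1161 bp (RUVBL2) and 1369 bp (YY1) in HepG2. Huh7 gave CYP51A1 peaks of 1689 bp (INO80), 637 bp (MCRS1), 287 bp (RUVBL2) and 1683 bp (YY1), so that it was occupied in all 9 lists with much the same INO80 width in both lines.

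TM7SF2, a sterol reductase, had INO80 peaks of 1574 bp in HepG2 and 1208 bp in Huh7 and YY1 peaks of 1919 bp in HepG2 and 1830 bp in Huh7. MSMO1, a methylsterol oxidase, had an MCRS1 peak of 5112 bp in HepG2 and of 692 bp in Huh7. Its INO80 peaks measured 2202 bp in HepG2, beginning 98 bp after the start, and 731 bp in Huh7, covering the start. MSMO1 thus carried a broad MCRS1 and INO80 domain into the gene in HepG2, with a YY1 peak of only 660 bp.

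HSD17B7, a sterol ketoreductase, and SC5D, a sterol desaturase, were the least occupied of the sterol genes. HSD17B7 had peaks of 152 bp (INO80), 860 bp (MCRS1), 147 bp (RUVBL2) and 522 bp (YY1) in HepG2. SC5D had 176 bp (INO80), 604 bp (MCRS1) and 460 bp (YY1) in HepG2. Both INO80 peaks are close to the shortest width in the list. The annotation also holds a pseudogene copy of HSD17B7, and how reads that match both were placed is not stated in the labels. DHCR7, the reductase of the last step to cholesterol, had INO80 peaks of 888 bp in HepG2 and 531 bp in Huh7.

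Of the 4 regulators, SREBF1, SREBF2 and SCAP were occupied widely and INSIG1 hardly at all. SREBF1, the gene of the SREBP form that mainly drives fatty acid genes, had HepG2 peaks of 1444 bp (INO80), 1593 bp (MCRS1), 191 bp (RUVBL1), 2027 bp (RUVBL2) and 1645 bp (YY1). Its Huh7 peaks measured 1182 bp (INO80), 147 bp (MCRS1), 882 bp (RUVBL2) and 2219 bp (YY1). With CYP51A1 it was occupied in all 9 lists, although its MCRS1 peak in Huh7 had the shortest width that the list holds.

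SREBF2, the gene of the form that mainly drives sterol genes, had HepG2 peaks of 2582 bp (INO80), 2702 bp (MCRS1), 242 bp (RUVBL1), 1745 bp (RUVBL2) and 1708 bp (YY1). In Huh7 it had 940 bp (INO80), 147 bp (RUVBL2) and 1451 bp (YY1), and no MCRS1 peak. SCAP had peaks of 900 bp (INO80), 982 bp (MCRS1), 386 bp (RUVBL2) and 851 bp (YY1) in HepG2, and in Huh7 of 232 bp (MCRS1), 204 bp (RUVBL2) and 675 bp (YY1) without INO80. SCAP was the only synthesis gene with MCRS1 and RUVBL2 but no INO80 in Huh7.

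INSIG1, which retains SCAP in the endoplasmic reticulum, stood apart from the other 25 genes. It carried no peak of any HepG2 list, although all the lists but that of RUVBL1 covered nearly every other synthesis gene. Its single peak was a broad YY1 peak of 2228 bp in Huh7 (chr7:155088770-155090997), wider than the YY1 peak of 95.3% of the genes with one in that list. An INO80 peak of 259 bp in Huh7 began 1272 bp downstream of the start and so fell just outside the window, while the nearest INO80 peak in HepG2 lay 48023 bp downstream. STARD4, the gene of a soluble sterol carrier, had INO80 peaks of 794 bp in HepG2 and 406 bp in Huh7 and was occupied in 6 lists.

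The 6 fatty acid genes had the highest median INO80 and MCRS1 widths of the pathway groups in HepG2, 1849 bp and 2391 bp. The medians were 1574 bp and 1844 bp at the 9 sterol genes and 980 bp and 1592 bp at the 6 mevalonate genes. The INO80 widths overlapped, at 1201 to 4066 bp, 152 to 3595 bp and 654 to 2615 bp in that order. FASN, ACACA and ACLY lie on chromosome 17 and ACSS2 on chromosome 20, which HepG2 is known to carry in extra copies. Of the mevalonate genes MVD lies on such a chromosome, 16. The part of copy number in these widths was not tested. All 6 fatty acid genes carried INO80, MCRS1 and YY1 in HepG2 and 5 carried RUVBL2. In Huh7, 5 carried INO80 and 5 YY1, while MCRS1 lay only at SCD and RUVBL2 only at FASN.

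FASN, the fatty acid synthase, held the widest INO80, MCRS1 and RUVBL2 peaks of all 26 genes in HepG2, of 4066, 12723 and 5303 bp. RUVBL1 measured 187 bp and YY1 1741 bp there. Huh7 gave FASN peaks of 1291 bp (INO80), 1386 bp (RUVBL2) and 2668 bp (YY1) and no MCRS1 peak. The absence of MCRS1 in Huh7 stands beside the broadest MCRS1 peak of the set in HepG2.

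SCD, the desaturase that puts in the first double bond, had HepG2 peaks of 2025 bp (INO80), 4314 bp (MCRS1), 3416 bp (RUVBL2) and 2425 bp (YY1). In Huh7 it had 1531 bp (INO80), 195 bp (MCRS1) and 1564 bp (YY1). ELOVL6, an elongase of fatty acids, had INO80 peaks of 2895 bp in HepG2 and 2639 bp in Huh7, so that, with CYP51A1, its INO80 width differed least between the lines. Its list count of 4 is low partly through the window, since a RUVBL2 peak of 654 bp in HepG2 and a YY1 peak of 1110 bp in Huh7 began 1663 and 1338 bp downstream of the start.

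ACACA, the carboxylase that makes malonyl-CoA, had INO80 peaks of 1201 bp in HepG2 and 337 bp in Huh7. ACLY, which makes cytosolic acetyl-CoA from citrate, had an INO80 peak of 1673 bp in HepG2 and none in Huh7, where YY1 measured 1514 bp. ACSS2, which makes acetyl-CoA from acetate, had INO80 peaks of 1359 bp in HepG2 and 277 bp in Huh7. ACLY in Huh7 shows that a broad YY1 peak could stand at a synthesis gene without an INO80 peak in the list.

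**Figure D3:**
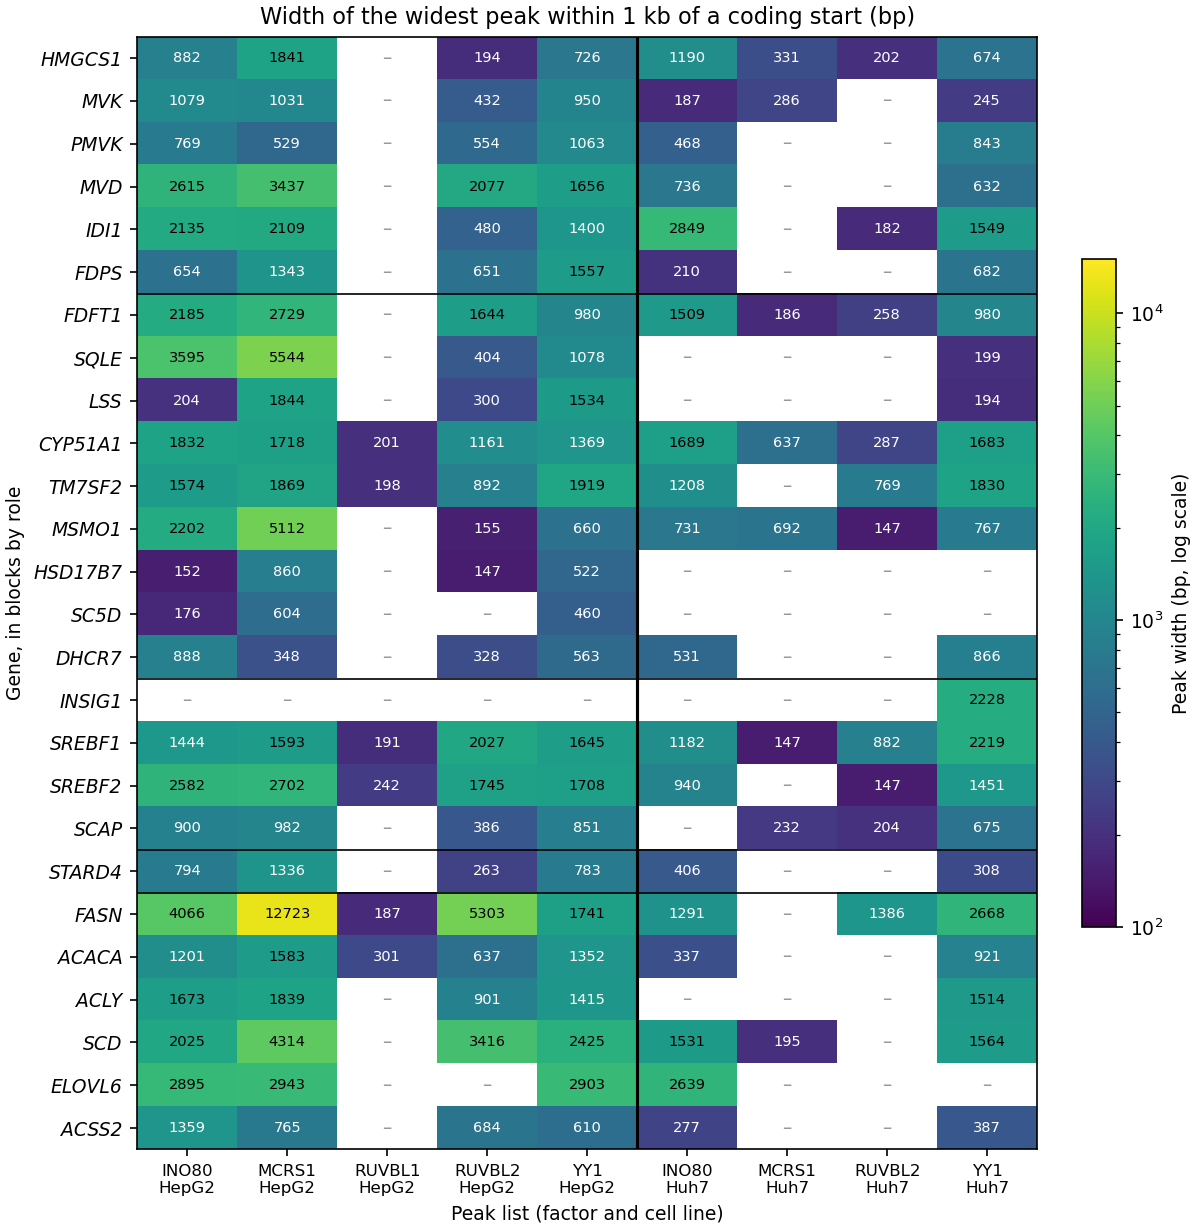
Width in bp of the widest peak within 1 kb of a coding start, for each of the 26 synthesis genes (rows, in blocks for mevalonate steps, sterol steps, regulators, sterol transport and fatty acid steps) in each of the 9 lists (columns, HepG2 left of the black line and Huh7 right of it), coloured on a log scale. Blank cells have no peak: INSIG1 is blank in all 5 HepG2 lists, and FASN holds the brightest cell, MCRS1 in HepG2 at 12723 bp.

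In HepG2, 4 of the factors each had a peak within 1 kb of a start at most of these genes, and in Huh7 at few. The count does not ask that the peaks overlap. In HepG2 a RUVBL2 peak overlapped the INO80 peak at 21 genes and covered at least 50% of it at 11. INO80, MCRS1, RUVBL2 and YY1 all had a peak at 23 of 26 synthesis genes in HepG2, against 38.4% of all genes. All 5 HepG2 lists had one at 6, against 14.4%, all 4 Huh7 lists at 5 (HMGCS1, FDFT1, CYP51A1, MSMO1 and SREBF1), against 9.07%, and all 9 lists at 2 (CYP51A1 and SREBF1), against 5.26%. No synthesis gene lacked a peak in every list, against 27.8% of all genes.

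Among genes that carried INO80 in HepG2, RUVBL2 lay at 23 of 25 synthesis genes (92%), against 60.7% of all genes with INO80. Wide INO80 peaks go with RUVBL2 peaks at large, so the share was also taken over genes whose INO80 peak was wider than the median of 1118.5 bp. RUVBL2 then lay at 14 of 15 synthesis genes (93.3%), against 73.1%. In Huh7, RUVBL2 lay at 9 of 19 synthesis genes with INO80 (47.4%), against 25%, and at 9 of 12 with a wide INO80 peak (75%), against 35.2%.

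For the other partners the shares lay nearer to those of all genes with INO80. MCRS1 accompanied INO80 at 25 of 25 synthesis genes in HepG2, against 86.3%, and at 7 of 19 in Huh7 (36.8%), against 43%. YY1 did so at 25 of 25, against 89%, in HepG2 and at 18 of 19 (94.7%), against 84.7%, in Huh7, with ELOVL6 the exception. RUVBL1 lay at 6 of 25 (24%), against 26.2%.

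MCRS1 peaks tended to outreach the INO80 peaks in HepG2. The MCRS1 peak was the wider of the pair at 19 of 25 synthesis genes (76%), against 57.5% of all genes with both, by a median of 0.32 on the log2 scale, against 0.07. Across the 25 genes the INO80 and MCRS1 widths in HepG2 had a Spearman correlation of 0.82, against 0.68 over all genes with both. Genes are not independent replicates, and both widths may follow shared features of a gene, so this is a description. The RUVBL2 peak was wider than INO80 at 4 of 23 genes (17.4%), against 6.91%, and the YY1 peak at 10 of 25 (40%), against 40.3%.

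The comparison of the lines asks which synthesis genes carried the complex in both. INO80 lay in both at 19 of 26 genes, against 45.3% of all genes. The other 6 genes with INO80 in HepG2, which were SQLE, LSS, HSD17B7, SC5D, SCAP and ACLY, had none in Huh7, and no synthesis gene had INO80 in Huh7 alone. YY1 lay in both lines at 22 of 26, against 48.5%, RUVBL2 at 10, against 11.2%, and MCRS1 at 8, against 21.2%. Read against the genes with a peak in HepG2, INO80 was also found in Huh7 at 76% of synthesis genes and 71.1% of all genes, MCRS1 at 32% and 36.4%, RUVBL2 at 43.5% and 28.7%, and YY1 at 88% and 77.6%.

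INO80 peaks were wider in HepG2 at 17 of the 19 shared genes (89.5%), against 81.8% of all genes with both, with a median log2 ratio of HepG2 over Huh7 of 0.74, against 0.83. IDI1 and HMGCS1 were the exceptions, with log2 ratios of -0.42 and -0.43. The ratio was highest at MVK, whose HepG2 peak was 5.77 times as wide, and at ACSS2 with 4.91 times. CYP51A1 and ELOVL6 differed least, at 1.08 and 1.1 times. Most synthesis genes thus had the wider INO80 peak in HepG2, as genes at large did.

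MCRS1 showed the widest gap between the lines. All 8 shared genes had the wider MCRS1 peak in HepG2, against 95.4% of all genes with both, with a median log2 ratio of 2.68, against 1.94, and SCD reached 22.1 times and FDFT1 14.7 times. For RUVBL2 the median was 1.30, against 1.08. YY1 had 14 of 22 genes wider in HepG2 (63.6%), against 75.2%, and 7 wider in Huh7, with a median of 0.28, against 0.49, and FASN and DHCR7 had the most Huh7-sided YY1 peaks, at log2 ratios of -0.62 each. The lists of the lines differ in their number of peaks, with 23425 in HepG2 and 6020 in Huh7 for MCRS1, and the part of depth or antibody lot in these ratios was not tested. Since the YY1 reads of HepG2 came from another source, cell line and source cannot be told apart for YY1.

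The INO80 peaks reached further downstream than upstream and covered the canonical start about as often as at all genes. They covered it at 19 of 25 synthesis genes in HepG2 (76%), against 74.3%, and at 10 of 19 in Huh7 (52.6%), against 49.9%. In HepG2 the median INO80 peak of the synthesis genes reached 583 bp upstream and 1023 bp downstream of the start of the canonical transcript, against 461 and 633 bp over all genes. Its centre lay downstream of the start at 22 of 25 genes (88%), against 63.7%. Positions here were read from the canonical start even where the widest peak lay at another start. ACACA is therefore among the 22, its widest INO80 peak lying at the start 50868 bp further on. FASN reached from 1728 bp upstream to 2337 bp downstream, and SQLE from 632 bp upstream to 2962 bp downstream. HSD17B7 went the other way, with an INO80 peak that ended 432 bp before the start. FDPS had 2 INO80 peaks in HepG2, the wider of 654 bp ending 520 bp before the start and the other of 598 bp inside the gene.

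YY1 in HepG2 was nearly centred, with 463 bp upstream and 454 bp downstream and its centre downstream at 12 of 25 genes (48%), against 51.5%, and covered the start itself at 24 of 25 genes (96%), against 84.8%. FDFT1 was the exception, since its widest YY1 peak lay at its downstream starts, beside a peak of 809 bp at the canonical ones. YY1 in Huh7 lay further downstream, with its centre after the start at 19 of 23 genes (82.6%), against 60.6%. The 19 include FDFT1 and ACACA, whose widest YY1 peaks in Huh7 lay at starts further into the gene. RUVBL2 peaks in HepG2 covered the start at only 8 of 23 genes (34.8%), against 43.9%, and those in Huh7 at 1 of 10, against 31.9%. Of the 6 genes with RUVBL1, none had its widest RUVBL1 peak over the canonical start, against 25.8% of genes with a RUVBL1 peak. The widest RUVBL1 peak lay upstream of that start at CYP51A1, SREBF1, SREBF2 and ACACA, and downstream at TM7SF2 and FASN. TM7SF2 and ACACA each had a second, narrower RUVBL1 peak, of 186 and 158 bp. INO80 in Huh7 had medians of 334 bp upstream and 712 bp downstream, against 328 and 391 bp. MCRS1 differed between the lines: in HepG2 its peaks covered the start at 23 of 25 genes (92%), against 76.8%, and their centre lay downstream at 16 (64%), against 58.8%. In Huh7 MCRS1 covered the start at 2 of 8 genes (25%), against 35.4%, with the centre downstream at 2 (25%), against 45.3%.

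**Figure D4:**
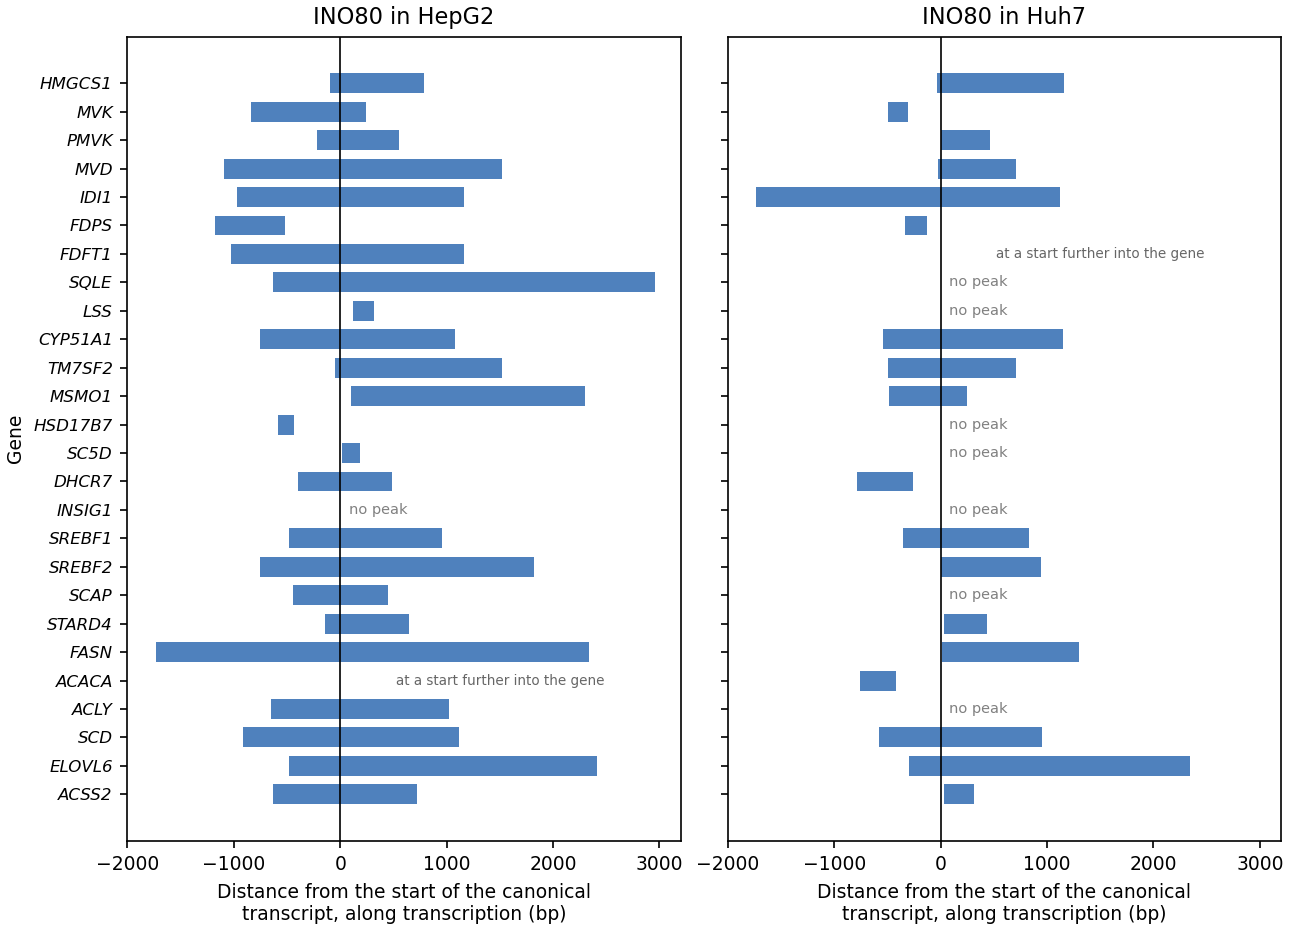
Extent of the widest INO80 peak at each synthesis gene (rows) along the direction of transcription, in bp from the start of the canonical transcript (vertical line), in HepG2 (left) and Huh7 (right). Most bars reach further to the right of the line than to the left, with the longest at FASN and SQLE in HepG2, and 7 genes have no INO80 peak in Huh7. The widest peaks of ACACA in HepG2 and FDFT1 in Huh7 lie at starts further into the gene and are not drawn.

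Genes with several starts were followed start by start. A gene with more starts has more chances of a peak. The synthesis genes had a mean of 3.04 coding starts (median 2.5), against 2.82 (median 2) for all genes, and 23 of 26 (88.5%) had their starts in a single cluster, against 73.3%. ACACA has 4 clusters of starts, of which 2 were occupied. At the canonical start it carried INO80 peaks of 852 bp in HepG2 and 337 bp in Huh7, and at the start 50868 bp further on an INO80 peak of 1201 bp in HepG2 and none in Huh7. YY1 held both starts in both lines, with 1352 and 1188 bp in HepG2 and 664 and 921 bp in Huh7, and the remaining ACACA starts carried no peak.

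FDFT1 has 3 clusters of starts. The canonical cluster carried peaks in 6 lists and a cluster that begins 5202 bp downstream in 7, while the cluster furthest upstream carried none. INO80 in HepG2 lay at both, with 2185 and 2032 bp, but in Huh7 only at the downstream cluster, with 1509 bp. The canonical FDFT1 starts thus carried MCRS1 and YY1 in Huh7 without INO80, so no single cluster of FDFT1 held all 4 factors there. Of its 2 coding starts, SCAP carried peaks at the canonical one and none at the other. Among the synthesis genes 3 (11.5%, against 16.8% of all genes) have the coding start of a neighbour on the opposite strand within 1 kb: MVK with MMAB at 214 bp, IDI1 with WDR37 at 419 bp and ACACA with TADA2A at 50 bp. A peak there cannot be assigned to 1 of the genes.

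Further annotated starts of these genes, more than 1 kb from the coding starts used above, were occupied in part. The start of DHCR7 that lies 4475 bp upstream of the canonical one carried INO80 (880 bp), MCRS1 (923 bp) and YY1 (414 bp) in HepG2, beside MCRS1 (248 bp) and YY1 (677 bp) in Huh7. ACLY has one 11591 bp upstream with peaks in all 5 HepG2 lists, of 532 bp for INO80 and 326 bp for RUVBL1, and in no Huh7 list. Coding starts of the neighbours NADSYN1 and ODAD4 lie within 1 kb of these, so the peaks cannot be assigned to DHCR7 or ACLY. SREBF1 had peaks in 7 lists at a group of starts 20591 to 23544 bp downstream, near its end, where no other gene has a coding start within 1 kb. They measured 820 bp (INO80), 2189 bp (MCRS1), 757 bp (RUVBL2) and 817 bp (YY1) in HepG2, and 418 bp (MCRS1), 837 bp (RUVBL2) and up to 1564 bp (YY1) in Huh7. SREBF1 was thus occupied at both ends in both lines. SCAP had narrow peaks at starts 32639 to 32847 bp downstream in HepG2, of 317 bp (INO80), 259 bp (MCRS1), 251 bp (RUVBL2) and 147 bp (YY1), and none there in Huh7.

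RUVBL2 in HepG2 and YY1 in Huh7 covered most of FASN, and the other lists covered less of it. The gene spans 19957 bp, and in HepG2 RUVBL2 peaks covered 79.3% of it, MCRS1 36.9%, INO80 22.7%, YY1 8.64% and RUVBL1 0.937%. In Huh7, YY1 peaks covered 77.7%, RUVBL2 37%, INO80 7.52% and MCRS1 none. Of the 14604 genes of at least 10 kb, 1 was covered more than FASN by RUVBL2 in HepG2, 3 by RUVBL2 in Huh7 and 2 by YY1 in Huh7. RUVBL2 thus covered FASN more than nearly all of these genes in both lines, and YY1 did so in Huh7, while 589 genes were covered more than FASN by YY1 in HepG2.

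The long domains at FASN have their own positions. The MCRS1 peak of HepG2 (chr17:80052376-80065098) reached 8986 bp upstream of the start and 3736 bp into the gene. A YY1 peak of 15289 bp in Huh7 (chr17:80033446-80048734) began 7378 bp after the start and ran past the end of the gene. Between the start and that peak, YY1 in Huh7 also reached 1614 bp downstream with its peak at the start and had peaks of 147 and 1165 bp further on. HepG2 is known to carry extra copies of chromosome 17, on which FASN lies, and the part of copy number in these widths was not tested. No other gene has a coding start within 1 kb of the YY1 peak.

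**Figure D5:**
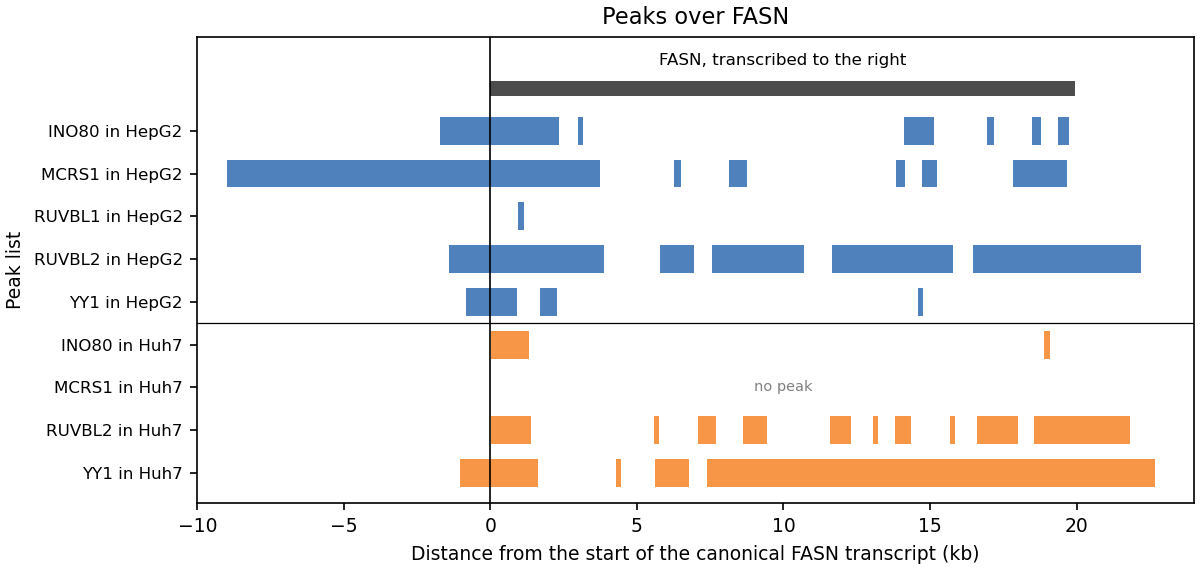
Peaks of each list (rows, HepG2 in blue above Huh7 in orange) over FASN, in kb from the start of the canonical transcript, with the gene as a dark bar of 19957 bp. RUVBL2 in HepG2 and YY1 in Huh7 cover most of the gene (79.3% and 77.7%), MCRS1 in HepG2 extends 8986 bp upstream, and MCRS1 in Huh7 has no peak.

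The cover of FASN by RUVBL2 in both lines and by YY1 in Huh7 was the highest of the synthesis genes of at least 10 kb, whereas MSMO1 had more INO80 in HepG2 (23.3% against 22.7% at FASN) and SREBF1 more YY1 in HepG2 (11.6% against 8.64%). Among the genes of at least 10 kb, INO80 in HepG2 covered a median of 4.38% of the gene, against 0.993% over all genes, and YY1 in Huh7 a median of 3%, against 0.344%. Peaks inside the gene and more than 1 kb from every coding start were found for INO80 at 11 synthesis genes in HepG2 (42.3%), against 17.6% of all genes, and at 5 in Huh7 (19.2%), against 10.2%. For MCRS1 they were found at 14 in HepG2 (53.8%), against 18.7%. YY1 had them at 8 in HepG2 (30.8%), against 32.9%, and at 19 in Huh7 (73.1%), against 20%. YY1 in Huh7 thus had such a peak at most of the synthesis genes, while in HepG2 its share was near that of all genes. Many of these Huh7 peaks were narrow, such as those of 147 bp, the shortest width in the list, at MVK, INSIG1 and SREBF2. The widest was that of FASN, with 15289 bp. Peaks at gene ends could fall on a neighbour. The peaks of INO80 (2954 bp), MCRS1 (3003 bp), RUVBL2 (2887 bp) and YY1 (1601 bp) about the end of MVD in HepG2 lie at the start of the neighbour CYBA, and a YY1 peak of 5926 bp in Huh7 at the end of FDPS lies at starts of RUSC1.

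The promoter letters of the 23 genes were set beside 19481 promoters of the same 300 bases. CCAAT was present in 16 of 23 synthesis genes (69.6%), against 36% of all promoters, and up to 5 times in a window, as at MVK. The GC box GGGCGG was present in all 23, against 61.8%. The sterol element TCACNCCAC was present in 1 of 23, against 1.22%, and that gene was SREBF2, 133 bases before the start. Only this string was searched, so an element that differs from it by a letter was not counted. The count therefore does not show that the other promoters lack sterol elements. The E box CACGTG was present in 4 of 23 (LSS, SC5D, INSIG1 and SCAP; 17.4%), against 8.77%. These are matches of letters and not measured sites, and GC-rich promoters hold more GC boxes by their composition, with a median GC share of 68% for the synthesis genes against 63.7%.

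The YY1 core AAGATGGC was in none of the 23 windows, against 4.08% of promoters, and the looser AANATGGC in 1 (SREBF2), against 8.14%. Around the centres of the YY1 peaks at the same 23 genes, over 300 bases, AAGATGGC was present in 1 of 24 peaks in HepG2 (4.17%), against 5.05% of YY1 peaks at coding starts, and in 0 of 23 in Huh7, against 6.19%. AANATGGC was present in 2 of 24 (8.33%), against 9.84%, in HepG2 and in 0 of 23, against 11.5%, in Huh7. Around their centres, YY1 peaks at the synthesis genes thus held the core no more often than YY1 peaks at coding starts at large. The core is rare there in both lists, and the rest of each peak was not searched.

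The synthesis genes were last set beside 44 other genes of the same and neighbouring pathways, which make further sterols, isoprenoids, fatty acids and their regulators. In HepG2 INO80 lay at 96.2% of the synthesis genes and at 38 of the 44 others (86.4%), MCRS1 at 96.2% and at 36 (81.8%), and YY1 at 96.2% and at 38 (86.4%). RUVBL2 lay at 88.5% of the synthesis genes and at 25 of the others (56.8%), and RUVBL1 at 23.1% and at 10 (22.7%). In Huh7 the others had INO80 at 29 (65.9%), MCRS1 at 14 (31.8%), RUVBL2 at 4 (9.09%) and YY1 at 34 (77.3%), against 73.1%, 30.8%, 38.5% and 88.5% of the synthesis genes. Of the factors, RUVBL2 had the widest gap between these groups in either line. Among the others, FADS1 and FADS2 had the same peak widths in each of 8 lists, with 2447 bp for RUVBL2 in Huh7. Such peaks may be shared and so counted for both genes.

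The widest INO80 peaks of these other genes in HepG2 lay at GGPS1, the geranylgeranyl pyrophosphate synthase (3860 bp), at INSIG2, the paralog of INSIG1 (3681 bp), and at ACAT2, a cytosolic acetyl-CoA thiolase (3551 bp). INSIG2 was occupied in all 5 HepG2 lists, where INSIG1 had no peak, and in Huh7 INSIG2 carried YY1 alone, with 315 bp. IDI2, THRSP and GPAM had no peak in any list. IDI2 is the paralog of IDI1, which was occupied in 7 lists.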

How the data were processed

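The authors deposited 1 filtered peak list per factor and line, with 6 columns that give positions on hg19 and no height, enrichment or other score per peak. Tools named without version in the submitters' processing notes are MACS2, Bowtie2, deepTools, SAMtools and bedtools, and the builds named are dm3 and hg19. Nothing in the labels states whether replicates were pooled before peak calling. The fly spike-in tags and the libraries of cells given EPZ-6438 or DMSO were not used here.

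Gene starts were those of protein-coding transcripts in the basic set of GENCODE release 44 lifted to GRCh37, grouped by gene name into 19785 genes. A peak counted when it came within 1 kb of such a start, and its width is the number of bases it spans. Medians and shares over the synthesis genes were set beside those over all protein-coding genes. The members and lists were chosen with earlier results of these data known, so no test of the list was made. Named were all 26 members, neighbours that share a start window, and of the other pathway genes the 3 with the widest INO80 peak in HepG2 and those without any peak. The neighbours NADSYN1, ODAD4, CYBA and RUSC1, the genes FADS1 and FADS2, and the further starts of single genes, were named after their values were seen. Promoter letters came from the GRCh37 genome for the 23 members that the RefSeq promoter table (NCBI) lists. Overlap counting was checked on made-up positions with known answers. Python 3.11.15, numpy 2.4.6, scipy 1.17.1, pysam 0.24.0 and matplotlib 3.10.9 were used.

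Alternatives were a window of 500 bp or 5 kb, the canonical start only, starts of all transcripts, peak centres, the wider 50% of the peaks, an equal number (3322) of the widest peaks per list, and the genes without chromosomes 2, 14, 16, 17 and 20, which HepG2 is known to carry in extra copies. For partner factors, an overlap of 1 bp, cover of 50% and centres within 250 bp were tried. Added after the data were seen were the CpG-rich background, genes with wide INO80 peaks, and the members without a shared start window.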

Additional observations from a re-analysis of the deposited data

How the results depend on the processing

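The counts per list kept within 1.5 times their value with a window of 500 bp or 5 kb, the canonical start only, starts of all transcripts, peak centres in the window, or without the 3 genes that share a start window, and the median widths did so with the nearest peak or summed peaks. Taking the 3322 widest peaks of each list left INO80 at 10 of 26 synthesis genes in HepG2 (38.5%, against 15.6% of all genes), MCRS1 at 14 (53.8% against 15.3%), RUVBL1 at 2 (7.69% against 11.2%), RUVBL2 at 9 (34.6% against 14.2%) and YY1 at 13 (50% against 16.2%). In Huh7 it left INO80 at 9 (34.6% against 15.3%), MCRS1 at 4 (15.4% against 13.5%) and YY1 at 9 (34.6% against 14.7%), and in both lines INO80 at 6, MCRS1 at 3, RUVBL2 at 6 and YY1 at 8. With the wider 50% of each list, RUVBL1 lay at 1 (3.85% against 9.6%), MCRS1 in Huh7 at 4 (15.4% against 12.4%) and RUVBL2 in Huh7 at 5 (19.2% against 6.8%), and 4 genes held MCRS1 and 5 RUVBL2 in both lines. RUVBL1 therefore fell below the background in both settings. Without chromosomes 2, 14, 16, 17 and 20, RUVBL1 lay at 3 of 20 genes (15% against 14.6%). Asking for centres within 250 bp left MCRS1 beside INO80 at 12 genes, RUVBL1 at 0, RUVBL2 at 10 and YY1 at 13 in HepG2, and MCRS1 at 2, RUVBL2 at 4 and YY1 at 9 in Huh7. Asking the partner to cover at least 50% of the INO80 peak left RUVBL1 at 0 and RUVBL2 at 11 in HepG2, and MCRS1 at 2 and RUVBL2 at 3 in Huh7. These settings keep fewer peaks by construction. For the partner counts and the counts in both lines, no share over all genes was taken under these settings. Whether their drop is particular to the synthesis genes is therefore unknown. No paired analysis was possible because each factor and line has a single peak list, and no result comes from a test. For the same reason no replicate could be left out. The number of peaks in a list may follow its depth, which the lists do not give, and a narrow peak near 147 bp is at the limit of what a list holds, so a missing peak is not evidence of an unoccupied start.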
